A study of Rattus norvegicus with 10 samples.

Results

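*Alkal2* and the genes of its receptor pathway were described in the trigeminal ganglion (TG), the ganglion that holds the cell bodies of the sensory neurons of the face and mouth. The set has 6 genes: the ligand gene *Alkal2* (*Fam150b* in older annotation), the receptor genes *Alk* and *Ltk*, the growth factor genes *Ptn* and *Mdk*, and *Ptprz1*, which encodes a receptor of the last 2 factors. They are 6 of the 15507 genes with a symbol on the array. *Alkal2* was chosen by its measured difference between the same 10 arrays, so its values are given as a description with no test, and the other 5 genes were listed for their role in the pathway.

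TG RNA was measured in 5 OUM rats and 5 naive rats with 1 array per rat. The OUM rats were male Wistar rats, 8 weeks old, in which oral ulcerative mucositis (OUM) was produced under anesthesia by a filter paper with 50% acetic acid, held for 30 s against the mucosa in front of the lower incisors, and their ganglia were taken on day 2. The naive rats were age-matched male Wistar rats, labelled as day 2 after control treatment. By the study's methods they received the anesthesia alone, so the contrast has no group in which a filter paper without acid was applied. Both TGs of a rat were taken whole, so neurons that do not innervate the ulcer region contributed to every array.

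ALKAL2 is a secreted protein that binds and activates the receptor tyrosine kinases ALK and LTK, and ALKAL1 is its only close relative. Active ALK recruits adaptor proteins such as SHC and FRS2 and signals through the ERK, PI3K and STAT3 pathways. In mice, ALKAL2 made by sensory neurons is known to take part in pain that persists after inflammation or nerve injury. Pleiotrophin and midkine, the products of *Ptn* and *Mdk*, are heparin-binding growth factors that bind the receptor phosphatase PTPRZ1, and both have also been linked to ALK signaling.

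The sequence in front of *Alkal2* is shown because this gene had the largest difference of the set. It is the stretch of 250 bases before the annotated start of the gene in the RefSeq annotation of the GRCr8 assembly, chr6:53223132-53223381 on the plus strand, written 5′ to 3′. Capitals mark a match to TGACGT, the core of the cyclic AMP response element.
Alkal2: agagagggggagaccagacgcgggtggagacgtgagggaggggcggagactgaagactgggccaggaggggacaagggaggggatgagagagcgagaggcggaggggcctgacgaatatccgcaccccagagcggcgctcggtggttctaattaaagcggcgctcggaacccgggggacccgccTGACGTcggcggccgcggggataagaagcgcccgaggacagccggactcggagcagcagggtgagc

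The match begins 66 bases before the start. The stretch is 68.4% G and C, where the median over 33469 rat promoters of the same length is 51.2%. The core TGACGT, on either strand, occurs in 6.95% of those promoters. The window of *Alkal2* also holds 1 GC box (GGGCGG), a motif found in 30.5% of promoters. It holds no match to the STAT element TTCNNNGAA, the AP-1 element TGANTCA or the E-box CACGTG, which occur in 7.67%, 6.34% and 5.59% of the promoters, again with both strands searched. The table of promoters had entries for 4 of the 6 genes. Among them, *Alk* held 5 GC boxes, *Ltk* 1 GC box, and *Ptn* 1 GC box and 1 AP-1 match, a palindromic site read on both strands. A match to these letters is a description of the sequence and does not show that a factor binds it.

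Values are the log2 of the scanner's processed signal relative to the 75th percentile of the array, so that 0 is the signal of a bright probe and each unit is a 2-fold step. Scaling was even, with the 75th percentile at 2620 to 2949 signal units. A probe counted as detected when its signal was well above background, and 70.9 to 77.2% of the probes on an array were. The arrays lay on 2 slides, slide 1 with 3 OUM and 4 naive arrays and slide 2 with 2 OUM arrays (rats 4 and 5) and 1 naive array (rat 4). Pituitary marker genes were high on 3 arrays, OUM rats 1 and 2 and naive rat 1. All 7 probes of the 6 genes were well above background on all 10 arrays, and none had a spot that the scanner software marked as an outlier. Signals of different probes are not comparable as levels, so OUM and naive rats are compared within 1 probe.

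*Alkal2*, the ligand gene, was higher in all 5 OUM rats than in any naive rat, by 2.45-fold on its brighter probe (A_64_P119680). This probe read -1.04, -0.66, -0.84, -1.37 and -0.98 in OUM rats 1 to 5, against -2.20, -2.47, -1.91, -2.50 and -2.26 in naive rats 1 to 5. The lowest OUM rat, rat 4, lay 0.54 above the highest naive rat, rat 3. In signal units, the OUM arrays ran between 1141 and 1819, and the naive arrays between 494.4 and 777.4. The mean was -0.98 ± 0.26 in OUM rats and -2.27 ± 0.24 in naive rats (SD, n = 5 each). The difference was 1.29 on the log2 scale, with an SE of 0.15 from the limma fit over all features.

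A second probe of *Alkal2* (A_64_P048055) was dimmer and gave a difference of the same size, 2.50-fold. It read -3.91, -3.55, -3.60, -4.27 and -3.98 in OUM rats 1 to 5, against -4.95, -5.22, -4.67, -5.81 and -5.26 in naive rats 1 to 5. Again the groups did not overlap, with 0.40 between the lowest OUM rat and the highest naive rat. The mean was -3.86 ± 0.29 in OUM rats and -5.18 ± 0.42 in naive rats (SD, n = 5 each). The difference was 1.32, with an SE of 0.21 from the limma fit over all probes. Each probe has only 1 spot on an array, so no value carries an average over spots.

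**Figure D1:**
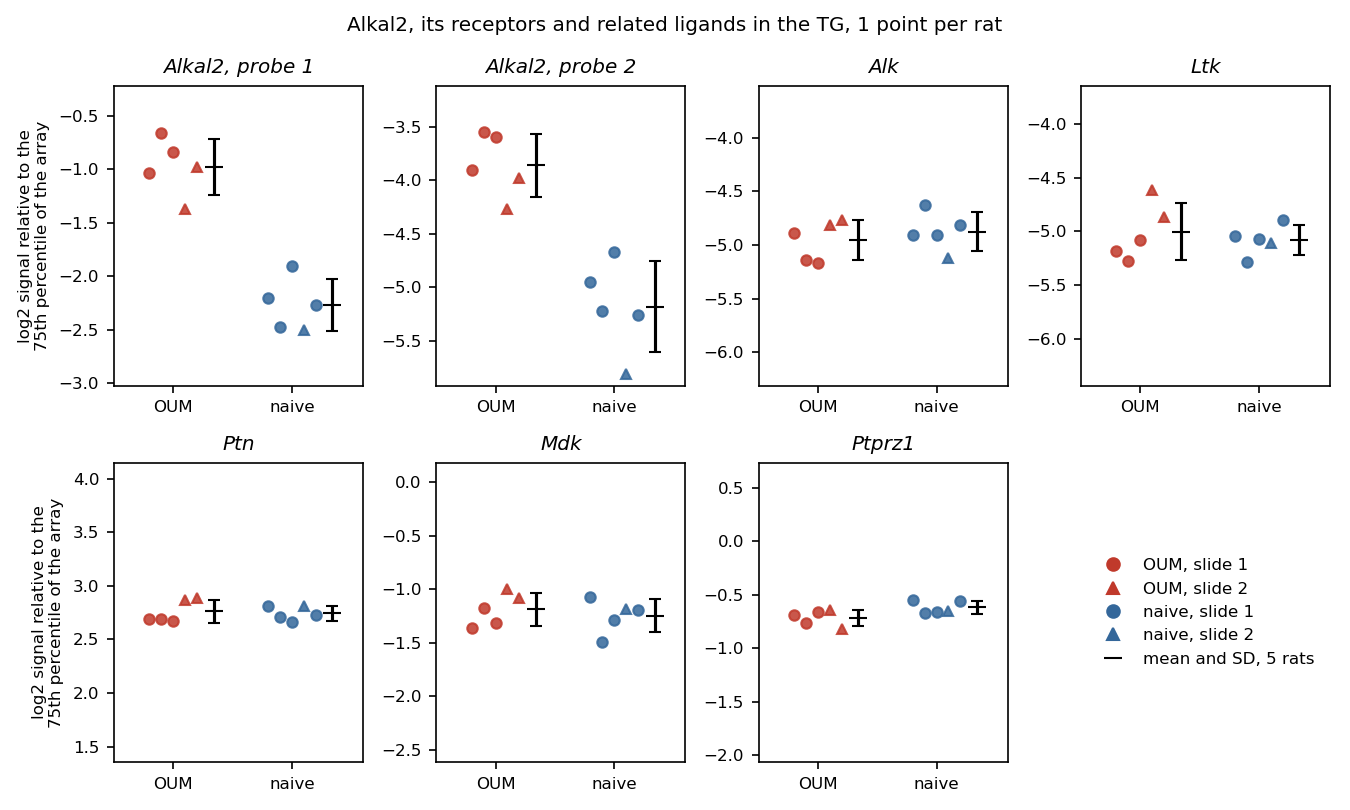
Log2 signal relative to the 75th percentile of the array (vertical axes, each spanning the same range) for the 7 probes of the 6 genes, with 1 point per rat, OUM left of naive, circles for slide 1 and triangles for slide 2. Black marks give the mean and SD of 5 rats. The OUM and naive points are separate for both *Alkal2* probes and overlap for *Alk*, *Ltk*, *Ptn*, *Mdk* and *Ptprz1*.

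Both probes ordered the rats in nearly the same way. OUM rat 2 was the highest and OUM rat 4 the lowest of the OUM rats on both, and naive rat 3 was the highest and naive rat 4 the lowest of the naive rats on both. Pearson's r between the probes was 0.976 over the 10 arrays and 0.885 once the group means had been subtracted, as a description of probes read on the same arrays. The distance between the probes was 2.74 to 3.00 on 9 arrays and 3.31 on the array of naive rat 4, whose dimmer probe read 49.92 signal units, the lowest reading of that probe.

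**Figure D2:**
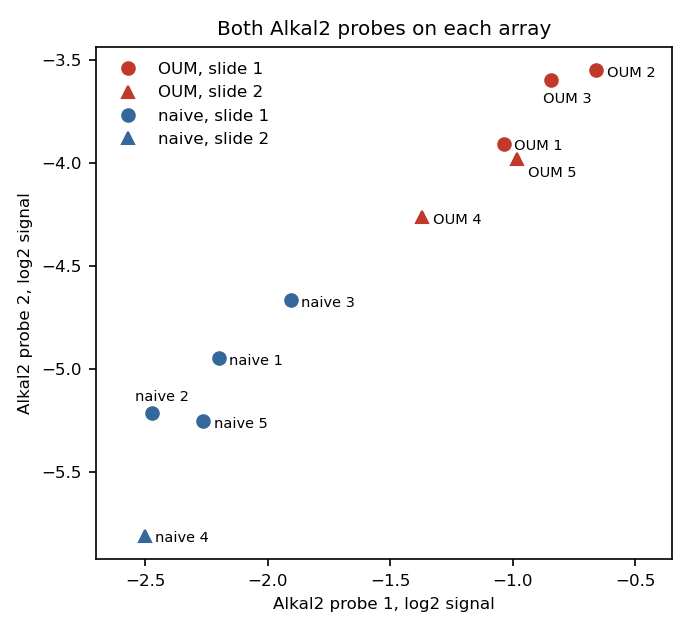
Log2 signal of the dimmer *Alkal2* probe (vertical axis) against the brighter one (horizontal axis), both relative to the 75th percentile of the array, with 1 labelled point per rat. The 5 OUM rats lie above and to the right of the 5 naive rats on both axes (r = 0.976 over 10 arrays), and naive rat 4 has the lowest value on each.

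The difference was present on each slide. The brighter probe averaged -0.85 in the 3 OUM rats and -2.21 in the 4 naive rats of slide 1, a difference of 1.37. On slide 2 it averaged -1.18 in the 2 OUM rats and read -2.50 in the 1 naive rat, a difference of 1.33. For the dimmer probe the differences were 1.34 on slide 1 and 1.69 on slide 2. With OUM rats 1 and 2 and naive rat 1, whose arrays were rich in pituitary genes, left out, the difference of the brighter probe was 1.22.

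Set against the whole array, *Alkal2* stood near the top of the upward differences. Of 19654 features tested (11986 genes with a symbol and 7668 probes without one), 5 had a larger upward difference, all of them named genes, and 2 of those 5 had an unadjusted limma p under 0.05. It was the 1 gene of the 6 beyond 1.5-fold or 0.67-fold, limits that 1.09% of all features passed (85 higher and 129 lower), and the 1 gene of the 6 whose groups of arrays did not overlap, as was the case for 1.8% of 19643 features. These counts come from the contrast on which *Alkal2* was chosen, so nothing is read from them beyond its place among the features.

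None of the other 5 genes passed the test. At an adjusted p under 0.05, which 0.0102% of all features passed, limma called 0 of the 5, and 0 of the 5 had an unadjusted p under 0.05, a level that 8.95% of all features reached. The methods' t-test, the unequal-variance test that the study's methods name, likewise gave 0 of 5 at either level. The intervals below show which differences the arrays would still allow.

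*Alk*, which encodes the main receptor of ALKAL2, was detected on every array with overlapping groups. It read -4.88, -5.14, -5.17, -4.81 and -4.77 in OUM rats 1 to 5, against -4.91, -4.62, -4.91, -5.13 and -4.82 in naive rats 1 to 5. The difference was -0.08 (SE 0.11, 95% interval -0.32 to 0.16, limma adjusted p = 0.866, exact permutation p = 0.556, two-sided). The slides gave opposite signs: -0.25 on slide 1 and 0.34 on slide 2, where OUM rats 4 and 5 had the highest *Alk* values of the OUM group and naive rat 4 the lowest of the naive group. Its signal was 76.21 to 113.5 units, and the 2 spots of the probe differed by up to 0.54 on an array, more than the difference between the groups.

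*Ltk*, which encodes the second receptor of ALKAL2, was also dim, at 71.74 to 120.7 units. It read -5.18, -5.28, -5.08, -4.61 and -4.87 in OUM rats 1 to 5, against -5.05, -5.29, -5.07, -5.11 and -4.90 in naive rats 1 to 5. OUM rats 4 and 5 lay above all naive rats, and the other 3 OUM rats lay among them. The difference was 0.08 (SE 0.12, 95% interval -0.20 to 0.35, limma adjusted p = 0.887, exact permutation p = 0.603). Within slides it was -0.10 on slide 1 and 0.37 on slide 2.

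The 2 growth factor genes differed less. *Ptn* was bright, at 17340 to 21460 signal units. It read 2.69, 2.69, 2.67, 2.86 and 2.89 in OUM rats 1 to 5, against 2.81, 2.71, 2.66, 2.82 and 2.73 in naive rats 1 to 5. The difference was 0.02 (SE 0.06, 95% interval -0.11 to 0.15, limma adjusted p = 0.948, exact permutation p = 0.698). The slides gave -0.04 and 0.06.

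*Mdk* read -1.37, -1.18, -1.32, -0.99 and -1.08 in OUM rats 1 to 5, against -1.07, -1.49, -1.28, -1.18 and -1.19 in naive rats 1 to 5. The groups overlapped, with OUM rat 4 above every naive rat and naive rat 2 below every OUM rat. The difference was 0.06 (SE 0.09, 95% interval -0.15 to 0.27, limma adjusted p = 0.888, exact permutation p = 0.579), with -0.03 on slide 1 and 0.15 on slide 2.

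*Ptprz1*, the receptor phosphatase gene, was the member other than *Alkal2* with the lowest p. It read -0.68, -0.77, -0.66, -0.64 and -0.82 in OUM rats 1 to 5, against -0.55, -0.67, -0.67, -0.65 and -0.55 in naive rats 1 to 5. The values of 3 OUM rats lay below all naive values and those of the other 2 among them. The difference was -0.10 (SE 0.05, 95% interval -0.21 to 0.01, limma adjusted p = 0.607, exact permutation p = 0.0794). It was of like size on both slides, -0.10 on slide 1 and -0.08 on slide 2.

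**Figure D3:**
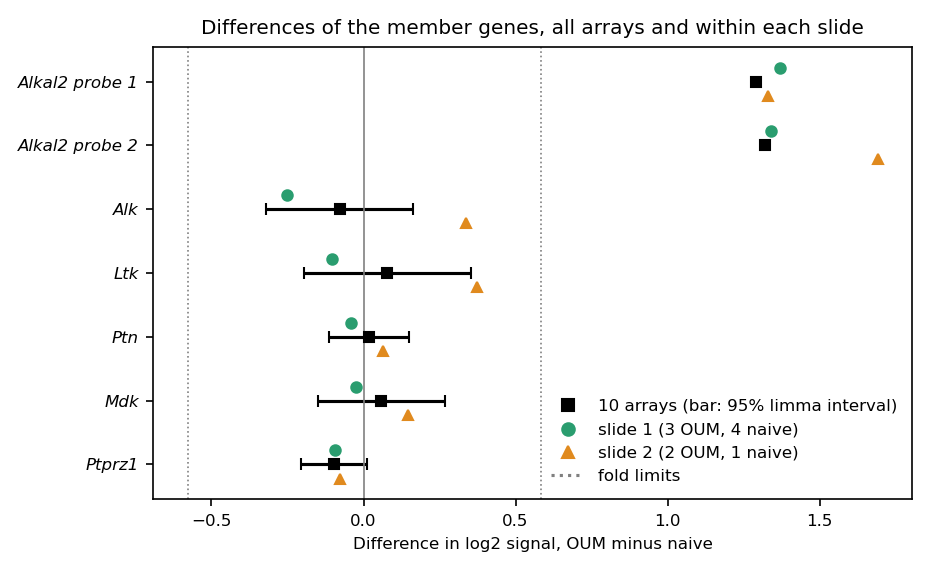
Difference in log2 signal, OUM minus naive (horizontal axis), for each probe of the 6 genes (rows). Squares give the difference over the 10 arrays, bars its 95% limma interval (not drawn for *Alkal2*, which was chosen on this contrast), circles and triangles the difference within slide 1 and slide 2, and dotted lines the limits of 1.5-fold and 0.67-fold. The differences of the *Alkal2* probes are 1.29 and 1.32, and the intervals of the other 5 genes include 0.

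The members did not vary together as a group. With the group means subtracted, *Ltk*, *Ptn* and *Mdk* followed each other over the 10 arrays, with r = 0.658 between *Ltk* and *Ptn*, 0.727 between *Ltk* and *Mdk*, and 0.761 between *Ptn* and *Mdk*. In each of these genes the highest values of the OUM group were those of rats 4 and 5, the OUM rats of slide 2. Within the groups, the r of *Alkal2* was -0.43 with *Ltk*, -0.585 with *Ptn*, a weak -0.146 with *Mdk*, -0.418 with *Alk* and -0.244 with *Ptprz1*. As measured, it was 0.0527 with *Ltk*, -0.0859 with *Ptn*, 0.146 with *Mdk*, -0.351 with *Alk* and -0.651 with *Ptprz1*. The measured values include the difference between the groups. All of these values share arrays and slides and are given as a description.

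Other genes of the pathway were read as 4 lists (relatives, adaptors and effectors, ERK-responsive genes, and partners of pleiotrophin and midkine), and limma called 0 genes in each at an adjusted p under 0.05. The list of ALK adaptors and effectors had 44 genes, of which 40 were tested. At an unadjusted p under 0.05, 4 were higher and 1 was lower in OUM rats. In either direction this was 12.5% of the list beside the 8.95% of all features (769 higher and 991 lower). The methods' t-test gave the same 4 and 1 as counts, and 0 after adjustment. The list's median difference was 0.02, beside -0.01 over all features.

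The 5 adaptor and effector genes at that level all had small differences. *Pik3r2*, a regulatory subunit of PI3K, differed by 0.17 (SE 0.06, limma adjusted p = 0.491, exact permutation p = 0.0159), and *Frs3*, an adaptor of the FRS2 family, by 0.28 (SE 0.10, limma adjusted p = 0.513, exact permutation p = 0.0556). *Jak3*, a tyrosine kinase upstream of STAT proteins, differed by 0.15 (limma adjusted p = 0.491), and *Ptpn1*, a tyrosine phosphatase that acts on receptor kinases, by 0.12 (limma adjusted p = 0.513). *Pik3ca*, a catalytic subunit of PI3K, differed by -0.20 on its brightest probe (limma adjusted p = 0.486), but its 6 probes did not share a sign, with 4 below 0 and 2 above. *Stat3* differed by 0.10 (SE 0.09, limma adjusted p = 0.786).

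Of the 20 genes listed as responsive to ERK, 18 were tested and 1 had an unadjusted p under 0.05. This was *Spry4*, which encodes a feedback inhibitor of receptor kinase signaling. It read -2.01, -1.86, -1.90, -2.11 and -2.15 in OUM rats 1 to 5, against -2.14, -2.10, -2.25, -2.36 and -2.21 in naive rats 1 to 5. The difference was 0.20 (SE 0.07, limma adjusted p = 0.498, exact permutation p = 0.0397), the groups overlapped, and a second probe gave 0.16. The 1 gene of 18 is 5.56% of the list, under the share of all features, and the methods' t-test gave 1 as well. The list's median was 0.05.

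Of the 5 relatives of ALK and of its ligand, 4 had a probe and 3 were tested. No probe was matched to *Alkal1*, and *Ros1* was not detected widely enough to be tested. The receptor genes *Insr*, *Insrr* and *Igf1r* differed by -0.02, 0.20 and 0.10, with limma adjusted p = 0.943, 0.814 and 0.732, and 0 of the 3 had an unadjusted p under 0.05 by limma or by the methods' t-test.

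Among 26 genes for binding partners of pleiotrophin and midkine, 25 were tested. At an unadjusted p under 0.05, 4 were higher and 0 lower in OUM rats. In either direction this was 16% of the list beside 8.95% of all features, of which 769 were higher and 991 lower. For the list, the methods' t-test gave 3 higher and 1 lower. *Ptprg*, a receptor phosphatase related to PTPRZ1, read -3.49, -3.50, -3.51, -3.39 and -3.51 in OUM rats 1 to 5, against -3.68, -3.64, -3.63, -3.72 and -3.59 in naive rats 1 to 5. The groups did not overlap, and the difference was 0.17 (SE 0.04, limma adjusted p = 0.387, exact permutation p = 0.00794, the smallest that 5 arrays against 5 allow).

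*Lrp1*, an endocytic receptor of midkine, differed by 0.29 (SE 0.09, limma adjusted p = 0.486), with -1.84, -1.41, -1.65, -1.59 and -1.65 in OUM rats 1 to 5, against -1.91, -2.08, -1.83, -2.08 and -1.71 in naive rats 1 to 5. OUM rat 1 lay within the naive range. *Cspg5*, a chondroitin sulfate proteoglycan gene, differed by 0.22 (limma adjusted p = 0.546), and *Git1*, a scaffold protein gene, by 0.13 (limma adjusted p = 0.533) and by 0.17 on its second probe. *Ncl*, which encodes nucleolin, was the 1 other gene of the list without overlap, at -0.07 (limma adjusted p = 0.620), so that 2 of the 25 had groups without overlap, beside 1.8% of all features. The list's median was 0.04.

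**Figure D4:**
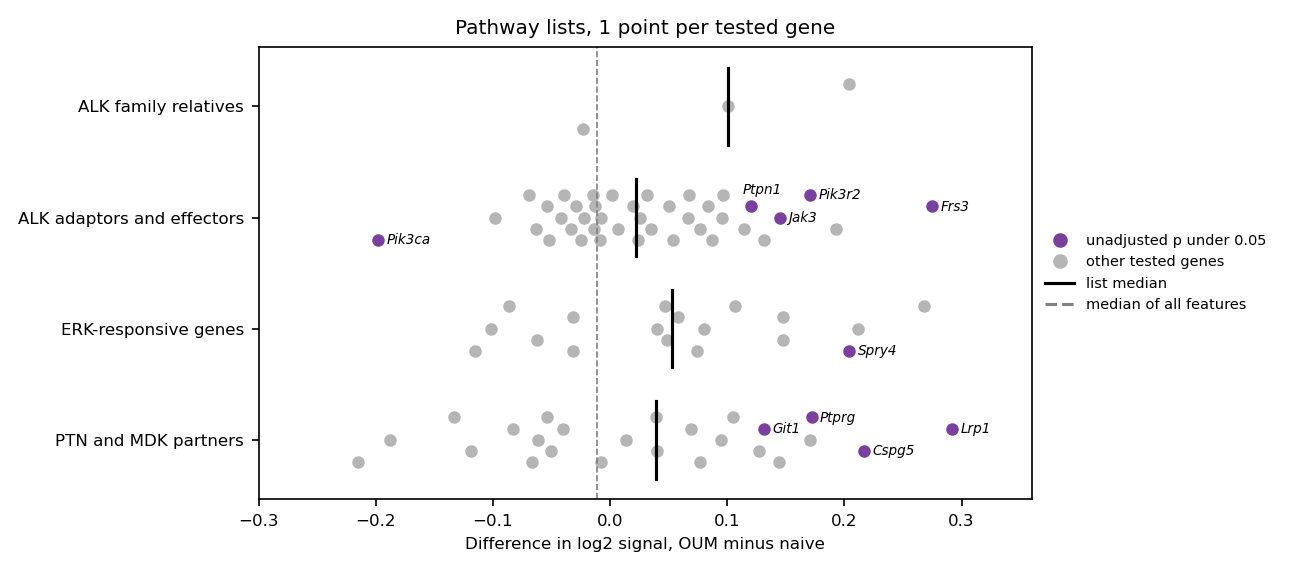
Difference in log2 signal, OUM minus naive (horizontal axis), for each tested gene of the 4 pathway lists (rows), with purple points for an unadjusted limma p under 0.05. Black bars are the list medians (0.10, 0.02, 0.05 and 0.04 from top to bottom), the dashed line is the median of all 19654 features (-0.01), and every listed gene lies between -0.215 and 0.292.

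The genes whose pattern was most like that of *Alkal2* were sought among 11534 genes detected on all 10 arrays. Over the arrays as measured, they were *RT1-DMa* (r = 0.943), an MHC class II chaperone gene, *Sbno2* (r = 0.935), *Arg1* (r = 0.925), the arginase gene, *Zfp503* (r = 0.916), and *Atf3* (r = 0.911), a transcription factor gene known to be induced in injured sensory neurons. Such a measure favors genes that differ between the groups, as *Alkal2* does. All 5 of these had groups without overlap, beside 1.8% of all features, and nothing is read from that count.

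The sizes of their differences varied widely. These genes were picked on values that include the contrast, so their differences are given with no test. *Arg1* read -2.93, -2.34, -2.42, -2.46 and -2.64 in OUM rats 1 to 5, against -3.28, -3.40, -2.97, -3.48 and -3.32 in naive rats 1 to 5, a difference of 0.74. *Atf3* read -0.79, -0.39, -0.41, -0.56 and -0.48 in OUM rats 1 to 5, against -1.07, -0.90, -0.88, -1.11 and -0.97 in naive rats 1 to 5, a difference of 0.46. In both genes OUM rat 1 was the lowest OUM rat, while for *Alkal2* it was OUM rat 4, and naive rat 3 was the highest naive rat in all 3 genes. *RT1-DMa*, *Zfp503* and *Sbno2* differed by 0.26, 0.18 and 0.12.

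With the group means subtracted, so that the contrast itself no longer counts, the genes most like *Alkal2* were others. They were *Src* (r = 0.911), a tyrosine kinase gene, *Gimap1* (r = 0.896), *Fer* (r = 0.885), another tyrosine kinase gene, *Arc* (r = 0.868), an immediate early gene of neurons, and *C1galt1c1* (r = 0.85). Their group differences were 0.10, -0.11, -0.11, 0.16 and -0.02, and limma adjusted p values ran between 0.564 and 0.937. OUM rat 4 and naive rat 4 were the lowest of their groups in all 5, as for *Alkal2*, and both lie on slide 2. OUM rat 5, the other rat of slide 2, deviated from its group mean by -0.004 in *Alkal2*. In *Src*, *Gimap1*, *Fer*, *Arc* and *C1galt1c1* its deviations were -0.037, 0.007, -0.01, -0.055 and 0.058. The part of the slide was not tested.

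**Figure D5:**
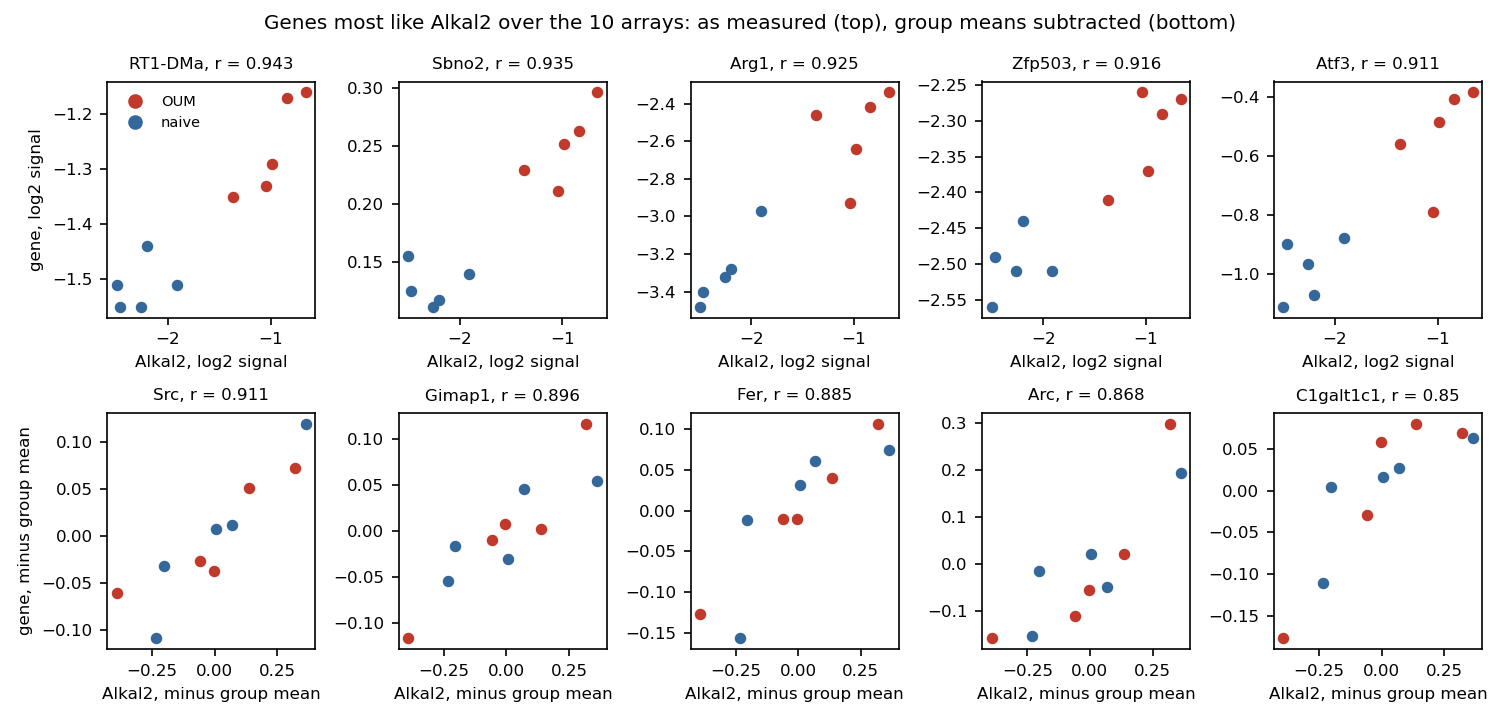
Log2 signal of the 5 genes most like *Alkal2* as measured (top row) and deviations from the group mean of the 5 most like it once group means were subtracted (bottom row), against the same quantity of *Alkal2* (horizontal axes), with 1 point per rat. In the top row the OUM rats lie at the upper right of the naive rats, and r runs between 0.911 and 0.943, while in the bottom row the groups are mixed and r runs between 0.85 and 0.911.

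The tissue label was checked against marker genes. All 15 sensory neuron markers with a probe were well above background on every array, as were 11 or 12 of the 12 satellite glia markers. The summed signal of the neuron markers, in units of the 75th percentile, was 321.4 to 384.8 on OUM arrays and 339.4 to 364.7 on naive arrays, and that of the glia markers 266.2 to 280.2 on OUM arrays and 254.4 to 289 on naive arrays. The sums are set mostly by the brightest probes. Of the 12 glia markers, 3 had an unadjusted p under 0.05 (25% beside 8.95% of all features), with *Gja1* at 0.34 and *Sox10* at 0.17 and *Fabp7* at -0.31, and limma called 0 after adjustment. Of the 15 neuron markers, 1 did, *Scn9a* at -0.15 (limma adjusted p = 0.440), and 0 were called. *Scn9a* was also the 1 neuron marker whose groups did not overlap, with OUM rats lower, beside 1.8% of all features. The methods' t-test gave 2 glia markers and 1 neuron marker at an unadjusted p under 0.05 and 0 of either after adjustment. Macrophage markers summed to 18.13 to 23.93 on OUM arrays and 19.52 to 21.89 on naive arrays, with all 12 detected on every array. Of these 12, 10 were higher and 2 lower in OUM rats. The neuron markers were 5 higher and 10 lower, and the glia markers 8 higher and 4 lower. Median differences were 0.08 for macrophage, -0.07 for neuron and 0.09 for glia markers, beside -0.01 over all features. Of the 12 macrophage markers, 1 had an unadjusted limma p under 0.05 (8.33%), *C1qa* at 0.31. So did 1 of the 11 Schwann cell and myelin markers tested (9.09%), *Egr2* at 0.38, and 0 of the 10 fibroblast and meninges markers. These shares stand beside 8.95% of all features, and limma called 0 in each list after adjustment. Pituitary markers summed to 20.48, 27.01, 1.98, 4.05 and 6.19 in OUM rats 1 to 5, against 22.32, 1.21, 2.95, 1.55 and 2.34 in naive rats 1 to 5. The part of these cell types in the *Alkal2* difference was not tested, and in RNA of whole ganglia fewer cells of a type and less RNA per cell cannot be told apart.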

How the data were processed

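TG RNA of 5 OUM and 5 naive rats was hybridized to 1-color Agilent arrays. The authors scanned the arrays and deposited the spot intensity from Agilent Feature Extraction 10.7.1.1, in which background is already subtracted, with marks for outliers and spots well above background. The median ratio of that intensity to the signal values of their deposited table was 1901.5 to 2156.2 over the arrays, and the table served as an alternative.

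Outlier and control spots were left out, a probe's spots were averaged, and the 75th percentile of each array was subtracted on the log2 scale of intensity. Accessions gave a symbol to 18438 of 30367 probes through RefSeq genes (GRCr8, names only, since the array's annotation names another build). The probe with the highest mean stood for its gene. A feature had to be well above background on every array of at least 1 group. The test was two-sided, by limma 3.58.1 in R 4.3.3 and Benjamini-Hochberg adjustment over 19654 features, and single genes by an exact permutation test over 252 assignments. The number of arrays limits the precision. The fit was tested on simulated data with 200 changed genes.

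The members, lists and tests were chosen with earlier results of these data known. Named genes were all members, list genes with an unadjusted p under 0.05 (at most 4 in each direction, otherwise the 2 with the lowest p), and the genes most like *Alkal2*. *Stat3*, *Ncl*, the cell type markers with values, and the third gene of the relatives were named after their values were seen. Alternatives were other background corrections, scalings, filters and probe rules, the slide and the replicate block, an intensity trend, weights per array, the methods' t-test, the authors' table, and each array left out.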

Additional observations from a re-analysis of the deposited data

Results flagged for a closer look

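No value of the 6 genes stood apart from its group. Dixon's ratio, the gap of the most distant rat divided by the range of its group, was under the limit of 0.71 for 5 samples in all 14 groups tested (7 probes in 2 groups), where chance would put about 1 in 20 over it. The highest ratio was 0.5, for *Mdk* in the naive group, where rat 2 had the lowest value at -1.49.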

How the results depend on the processing

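The difference of *Alkal2* was 1.18 to 1.39 over 28 alternatives, with 1.29 in the setting reported. In all 28, 1 of the 6 genes was beyond the fold limits. Alternatives such as other filters, other tests and the replicate block could not move the difference of any member, so that of *Alkal2* stayed at 1.29. With each array left out in turn, the difference of *Alkal2* was 1.21 to 1.39. Its dimmer probe was run under 4 other normalizations and was 0.883 with the normexp background correction, with the lowest OUM rat at -3.56 and the highest naive rat at -3.87.

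The count of features past an adjusted p was 2 of 19654 in the setting reported. It was 0 with median scaling, quantile normalization, no filter, the mean of a gene's probes, the methods' t-test, the authors' value table, the 3 pituitary-rich arrays left out, and the 75th percentile over probes (chosen after the data were seen). It was 1 with an intensity trend and robust prior and 1 with array weights, 162 on slide 2 alone (where the 1 naive array is assumed to vary like the OUM arrays), and 0 to 1 with 1 array left out. The causes were not tested. The replicate numbers were not taken as pairs of rats. Deviations of same-numbered rats correlated at -0.092 to 0.325, which cannot exclude a weak pairing. The highest value was that of OUM rat 4 and naive rat 4, both on slide 2. With the replicate block the count was 0.

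No other member was called in any alternative, but signs turned. *Ltk* was -0.0029 with normexp, -0.10 on slide 1 alone and -0.019 without OUM rat 4. *Ptn* was -0.012 with the slide as a block, -0.041 on slide 1 alone, -0.0076 and -0.014 without OUM rats 4 and 5, and -0.0028 without naive rat 3. *Mdk* was -0.026 on slide 1 alone and -0.0036 without naive rat 2, and *Alk* was 0.34 on slide 2 alone. With 1 array left out, the range was -0.019 to 0.15 for *Ltk*, -0.014 to 0.041 for *Ptn*, -0.0036 to 0.10 for *Mdk* and -0.11 to -0.071 for *Ptprz1*. *Alk* was -0.14 without naive rat 4, -0.13 without OUM rat 5, -0.032 and -0.024 without OUM rats 2 and 3, and -0.015 without naive rat 2, against -0.078 with all arrays. *Ptprz1* kept its sign in all 28. The signals of *Alk* and *Ltk* were low, at 71.74 to 120.7 units, and the part of this in their precision was not tested.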

Other observations

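The genes most like each of the other members differed from those like *Alkal2*. Over the 10 arrays as measured, *Ptn* was followed most closely by *Ucn2* (r = 0.986) and *Prp25l1* (r = 0.969), and 1.01% of the 11534 genes compared had an r over 0.9 with it. For *Mdk* these were *Abcg3l4* (r = 0.949) and *Pkd2* (r = 0.929), and 0.113% of the genes had an r over 0.9. For *Alk* they were *Chkb* (r = 0.934) and *Pcgf1* (r = 0.931), for *Ptprz1* *Ddx6* (r = 0.948) and *Cysrt1* (r = 0.901), and for *Ltk* *Ddo* (r = 0.897) and *Pik3c2a* (r = 0.894). For *Alkal2* itself, 0.0607% of the genes had an r over 0.9 as measured and 0.00867% with the group means subtracted. These values share arrays and slides and are given with no test.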
